A study of Mus musculus with 72 samples.

Results

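Lepr (ENSMUSG00000057722) encodes the leptin receptor, and it is described here across 72 mouse liver RNA-seq libraries as 1 gene of the 51912 in the deposited expected-count table. The gene was chosen on earlier results from these files, because its level on the Low Protein diet was among those that moved most in C57BL/6J males. Group comparisons of Lepr that include C57BL/6J males are therefore given as values, with no test, and others are tested where that choice played no part. Relations within groups were tested over all 72 libraries, C57BL/6J males included, with group means removed. The libraries came from mice of 2 inbred strains, C57BL/6J and DBA/2J, and 2 sexes. Feeding of 1 of 3 diets, named Control, Medium Protein and Low Protein, started at an age of 10 weeks and lasted 13 weeks, so all mice were 23 weeks old at collection. All were kept at about 22 °C and fasted for 16 h before the liver was taken, so every group, Control included, describes the fasted liver. Each of the 12 combinations of strain, sex and diet has 6 libraries. The labels name no transgene or deleted gene, and they do not state how the replicates of a group relate to cages or litters. The p-values therefore rest on treating the libraries of a group as independent.

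Leptin is a hormone released by fat cells in proportion to fat stores. It acts mainly in the hypothalamus, where the long form of its receptor passes the signal through the kinase JAK2 to STAT3, and SOCS3 and the phosphatase PTP1B (Ptpn1) restrain it. Liver makes mostly short receptor forms and is known as a source of the soluble receptor that carries leptin in blood, and hepatic Lepr is known to be higher in fasted than in fed mice.

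In the GENCODE M21 annotation of GRCm38, Lepr lies on chromosome 4 on the plus strand, from 101717404 to 101815352 (97.9 kb). No other annotated gene overlaps it. Leprot, a separate gene, ends 58 kb before Lepr starts. Of 7 annotated Lepr transcripts, 3 have a complete coding end, and they part after the last base of a shared exon at position 101792070. The 30 shared coding bases before that point are printed in lower case and the bases of each form after it in capitals, because the gene-level counts add these forms together and cannot show which of them changed.
Lepr-201, the long form: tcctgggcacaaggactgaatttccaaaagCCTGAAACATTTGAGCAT
Lepr-203, a short form: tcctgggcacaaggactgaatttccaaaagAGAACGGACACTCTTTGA
Lepr-202, a short form: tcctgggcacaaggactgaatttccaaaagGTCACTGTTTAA
The long form goes on for 273 residues of its own and makes a protein of 1162 residues. The capitals of the short forms run to their stop codons, after 5 residues of their own in Lepr-203 (894 in all) and 3 in Lepr-202 (892 in all).

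The bases before the annotated start are shown because Lepr differed strongly between the sexes. They are taken from the RefSeq promoter table (GRCm38.p6, chr4:101717157-101717403, plus strand), with capitals at the match to CCAAT on the reverse strand.
Lepr, 247 bases before the start: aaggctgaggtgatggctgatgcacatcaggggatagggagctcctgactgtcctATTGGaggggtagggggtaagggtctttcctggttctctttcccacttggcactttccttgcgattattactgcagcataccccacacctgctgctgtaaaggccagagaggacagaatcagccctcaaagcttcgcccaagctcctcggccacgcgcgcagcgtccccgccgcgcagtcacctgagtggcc
On both strands, CCAAT occurred in 33.8% of the 250-base windows before the 32851 starts in that table. The window of Lepr held no match to TTCNNNGAA (a STAT motif, in 7.02% of windows), a STAT motif with a spacer 1 base longer (5.85%), TGATGNAA (a C/EBP-ATF motif, 3.45%), TGACGTCA (a cAMP response motif, 1.55%), GTAAACA (a FOXO motif, 3.17%), GGGCGG (32.7%) or TATAAA (12.4%). Some of these motifs can overlap one another, and a match or its absence describes the letters of this window only.

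Library totals ran from 26937177 to 38447505 expected counts, and Lepr had between 138 and 19047 counts per library. Levels are in CPM, the usual counts-per-million unit, with library totals scaled by TMM. The 11 hepatocyte markers found in the table summed to 61608 to 111686 CPM, and none of them was at 0 throughout a group. In 4 libraries (C57BL/6J male Control replicates 1 and 6, C57BL/6J male Medium Protein replicate 6 and DBA/2J male Control replicate 4) transcripts with ribosomal-like sequence took 5.25% to 21.8% of counts, and results are also given without them where that changed a call. Mitochondrial genes took 15.0% to 28.0% of counts. Within groups, Lepr was lower where that share was higher (Pearson r = -0.32, adjusted p = 0.00678; Spearman rho = -0.38, adjusted p = 0.00567; 3 library measures, permutation within groups, 72 libraries; r = -0.26 without the 2 libraries farthest from the median share). Its relation to the library total (r = -0.064, adjusted permutation p = 0.621) and to the ribosomal-like share (r = 0.078, adjusted permutation p = 0.621) did not pass. In whole liver, more cells with Lepr and more Lepr RNA per cell cannot be told apart.

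The lowest Lepr levels were those of DBA/2J males. On Control they ranged from 4.37 to 9.53 CPM, with a median of 8.14 and a mean of 7.55 ± 1.84 CPM (SD, n = 6). On Medium Protein they ranged from 6.36 to 15.3 CPM with a median of 7.94 (8.80 ± 3.33). On Low Protein they ranged from 6.66 to 28.3 CPM with a median of 9.33 (12.5 ± 8.10). A single library stood well above the others on Medium Protein and again on Low Protein, and the ranges of the 3 diets overlapped.

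C57BL/6J males on Control came next, from 9.92 to 26.9 CPM with a median of 19.8 (18.3 ± 6.71). On Medium Protein their range was the widest in relation to its mean, from 5.12 to 81.4 CPM with a median of 19.2 (30.4 ± 28.0), and the highest value was 15.9 times the lowest. On Low Protein they ranged from 70.5 to 203 CPM with a median of 155 (149 ± 49.8). The lowest Low Protein library of this strain and sex lay above its highest Control library, whereas 1 Medium Protein library lay inside the Low Protein range.

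DBA/2J females spread from 59.3 to 205 CPM on Control, with a median of 90.5 (108 ± 53.8). On Medium Protein they ran from 55.4 to 145 CPM with a median of 100.1 (102 ± 35.6). On Low Protein they ran from 38.5 to 299 CPM with a median of 141 (154 ± 84.7), which takes in the lowest and the highest value of the 18 DBA/2J female libraries.

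The highest levels were those of C57BL/6J females. Control libraries ranged from 42.1 to 255 CPM with a median of 186 (171 ± 80.9), and Medium Protein libraries from 60.8 to 335 CPM with a median of 134 (164 ± 96.6). Low Protein libraries ranged from 198 to 465 CPM with a median of 408 (357 ± 114), and 4 of the 6 lay above the highest Control library.

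Ordered by mean, the groups ran from DBA/2J males (Control, Medium Protein, Low Protein) through C57BL/6J males on Control and Medium Protein, then DBA/2J females on Medium Protein and Control. C57BL/6J males on Low Protein, DBA/2J females on Low Protein, and C57BL/6J females on Medium Protein, Control and Low Protein followed. Every pair of neighbours in that order had overlapping ranges, and the step between neighbours was smaller than the larger of their SDs except at 2 steps. These were the step from C57BL/6J males on Medium Protein to DBA/2J females on Medium Protein (71.5 CPM) and the step up to C57BL/6J females on Low Protein (186 CPM).

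**Figure D1:**
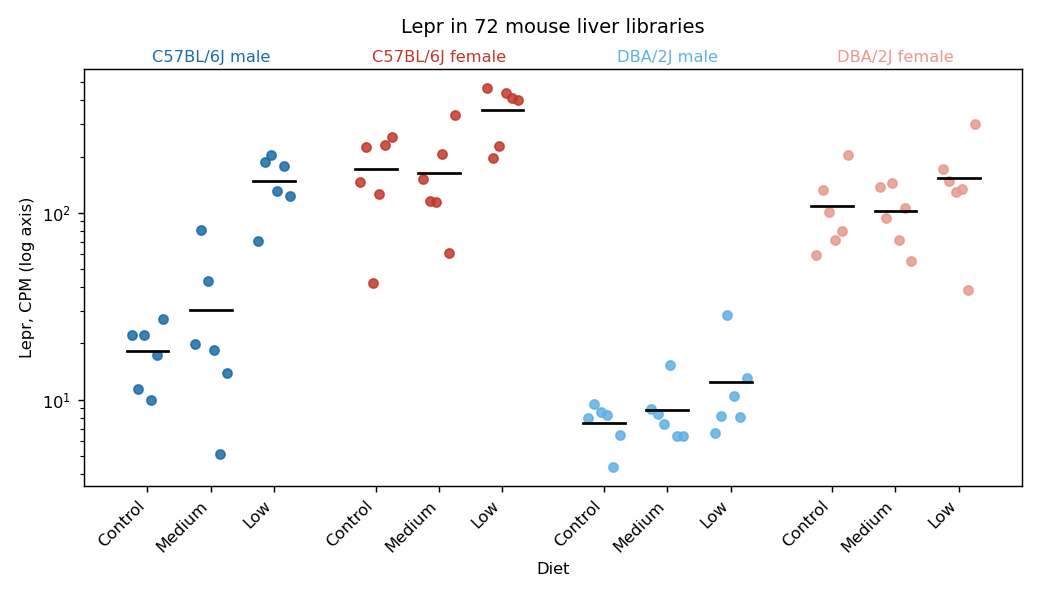
Lepr in each library (points, CPM on a log axis) by diet within strain and sex, with the mean of each group of 6 as a bar. Male libraries of DBA/2J lie between 4.37 and 28.3 CPM, below all DBA/2J female libraries (38.5 to 299 CPM), and C57BL/6J male libraries on Low Protein reach 70.5 to 203 CPM.

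The first question was whether Lepr differs between males and females. In DBA/2J on Control, mean Lepr was 14.3-fold lower in males than in females. The difference was -3.84 ± 0.47 (SE) on the log2 scale (95% interval -4.77 to -2.91; adjusted p = 1.13e-09, edgeR quasi-likelihood test with Benjamini-Hochberg adjustment over 19362 genes). None of the 6 male libraries reached the lowest female library, and 18.3% of all genes tested were called in this comparison. On log2(CPM + 0.5) the exact two-sided permutation p was 0.00216, the smallest that 6 against 6 libraries allow.

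The female excess in DBA/2J was found on each diet. On Medium Protein, where the sexes were compared after the values had been seen, males were 11.6-fold lower (-3.53 ± 0.46 log2, adjusted p = 9.95e-09), against a background of 13.2% of genes called. On Low Protein, also added later, males were 12.3-fold lower (-3.62 ± 0.46 log2, adjusted p = 4.3e-09), with 18.8% of genes called. The ranges of the sexes did not overlap on any of the 3 diets. With the share of mitochondrial counts as a term in the fit, the 3 differences were -3.49, -3.20 and -3.26 log2 in the order Control, Medium Protein and Low Protein, and each was called.

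C57BL/6J males were chosen on, so their difference from females is a description. On Control they were 9.32-fold lower than females of the strain (-3.22 ± 0.45 log2), with no overlap, and 20.8% of all genes were called between these sexes. On Low Protein the ranges of C57BL/6J males (70.5 to 203 CPM) and females (198 to 465 CPM) overlapped only between 198 and 203 CPM.

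The labels' titles carry a letter, N or R, whose meaning they do not give, and both letters occur in each group. A number, also unexplained, stands before the letter, and in some groups the same number occurs with both letters. Whether such libraries share a unit was not tested. Within the N libraries DBA/2J males on Control were lower than females by -3.07 log2 CPM (3 against 2 libraries) and within the R libraries by -4.12 (3 against 4). On the other 2 diets the values lay between -3.84 and -3.28 in either letter (3 against 3).

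The main question of the study was how a diet with less protein affects the liver in each strain and sex. In C57BL/6J females, Lepr on Low Protein was 2.09-fold its Control mean. The difference was 1.06 ± 0.41 log2 (95% interval 0.24 to 1.88), and all 6 Low Protein libraries lay above the Control median. It did not pass after adjustment over all genes (adjusted p = 0.144, edgeR quasi-likelihood test), where 3.25% of genes were called. Without that adjustment the edgeR p was 0.0118, and the exact permutation test of this gene alone gave p = 0.0195 on log2(CPM + 0.5). With the mitochondrial share as a term the difference was 0.72 ± 0.41 log2 (adjusted p = 0.423, edgeR), and that share ran from 22.2% to 24.0% on Control and from 19.0% to 21.2% on Low Protein in these females. Those ranges did not overlap, so diet and share cannot be told apart in this comparison. Within the N libraries the difference in Lepr was 1.41 log2 CPM (2 against 4 libraries) and within the R libraries 0.56 (4 against 2).

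In DBA/2J males, Lepr on Low Protein was 0.73 ± 0.43 log2 above Control (95% interval -0.14 to 1.59; adjusted p = 0.747, edgeR quasi-likelihood test, with 0.093% of genes called). Only 3 of the 6 Low Protein libraries lay above the Control median, and without the library at 28.3 CPM the difference was 0.30 log2. In DBA/2J females it was 0.51 ± 0.41 log2 (95% interval -0.31 to 1.32; adjusted p = 0.720, edgeR, with 0.816% of genes called), with 5 of 6 libraries above the Control median. That value was 0.20 without Low Protein replicate 6, 0.79 without Control replicate 6 and 0.32 with the mitochondrial share as a term. Within title letters the values were 0.30 (N) and 0.85 (R) log2 CPM in DBA/2J males and 0.54 and 0.58 in females. These intervals of the fit include no difference and also include a rise of the size seen in C57BL/6J females.

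In C57BL/6J males, on which the gene was chosen, the Low Protein level was 8.12-fold the Control level, or 3.03 ± 0.44 log2 (95% interval 2.14 to 3.91). In that comparison 34 of the other genes tested had a larger log2 difference, and 9.78% of genes were called. Because Lepr was chosen for a large difference in these libraries, the size, interval and rank follow in part from that choice. They are no independent support. Within title letters the difference was 3.18 log2 CPM among N libraries (4 against 2) and 3.03 among R libraries (2 against 4). Without the 4 libraries rich in ribosomal-like sequence it was 3.28 log2, and over all 12 other settings it lay between 2.93 and 3.30.

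Averaged over C57BL/6J females, DBA/2J males and DBA/2J females, a comparison added after the values had been seen, Lepr was 0.77 ± 0.24 log2 higher on Low Protein than on Control (95% interval 0.28 to 1.25; adjusted p = 0.0465, edgeR quasi-likelihood test). That is just past the threshold of 0.05, in a comparison that called 5.09% of genes. The call was lost with 5 of 12 other settings, among them the mitochondrial share as a term (0.53 log2, adjusted p = 0.260) and limma-voom (0.73 log2). It was also lost when any 1 of 23 of the 36 libraries was left out (adjusted p up to 0.120), these being 3 and 4 of the C57BL/6J female Control and Low Protein libraries, 4 and 5 of those of DBA/2J females, and 5 and 2 of those of DBA/2J males. The 4 Low Protein comparisons use separate Control groups.

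Whether the Low Protein difference itself differed between groups was tested where C57BL/6J males played no part. In DBA/2J it was 0.22 ± 0.59 log2 larger in males than in females (95% interval -0.97 to 1.41; adjusted p = 0.973, edgeR). No gene of the 19362 was called by edgeR in that test (0%), where 1478 had an unadjusted p under 0.05, and limma-voom called 0 genes and DESeq2 13. In females it was -0.56 ± 0.58 log2 in DBA/2J relative to C57BL/6J (95% interval -1.71 to 0.59; adjusted p = 0.788, edgeR, with 0.093% of genes called), and it lay between -0.86 and -0.27 when 1 library was left out. As a description, the difference of C57BL/6J males exceeded that of C57BL/6J females by 1.96 ± 0.59 log2, and that of DBA/2J males lay -2.30 ± 0.61 log2 from that of C57BL/6J males.

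Medium Protein did not pass against Control in any group that could be tested. Against Control, the differences were -0.06 ± 0.41 log2 in C57BL/6J females (adjusted p = 0.991), 0.22 ± 0.44 in DBA/2J males (adjusted p = 1) and -0.09 ± 0.41 in DBA/2J females (adjusted p = 1, all edgeR). The 95% intervals were -0.87 to 0.75, -0.65 to 1.10 and -0.90 to 0.72 log2 in that order, and each includes both a rise and a fall. The shares of genes called by edgeR were 0%, 0.00516% and 0.00516% in the same order. For the first of these, 1465 genes had an unadjusted p under 0.05, DESeq2 called 10 and limma-voom 0. The value in C57BL/6J females went opposite ways in the title letters, 0.80 log2 CPM among N libraries (3 against 4) and -1.25 among R libraries (3 against 2). In C57BL/6J males the difference was 0.73 ± 0.42 log2, and 3 of 6 Medium Protein libraries lay above the Control median. It was 0.31 with limma-voom, 1.14 without the 4 libraries rich in ribosomal-like sequence and 0.14 without Medium Protein replicate 2. It also changed sign between the letters, at 1.299 log2 CPM among N libraries (3 against 2) and -0.58 among R libraries (3 against 4).

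Against Medium Protein, Low Protein gave 1.12 ± 0.41 log2 in C57BL/6J females (95% interval 0.30 to 1.94; adjusted p = 0.148, edgeR, with 1.94% of genes called), and 6 of 6 libraries lay above the Medium Protein median. Without adjustment over genes the edgeR p was 0.00815, and the exact permutation p for the gene alone was 0.0130. The values were 0.50 ± 0.43 log2 in DBA/2J males (adjusted p = 0.958, edgeR) and 0.59 ± 0.41 in DBA/2J females (adjusted p = 0.795, edgeR, 0.0413% of genes called). They were 0.079 without DBA/2J male Low Protein replicate 3 and 0.29 without DBA/2J female Low Protein replicate 6. In DBA/2J males edgeR called 0% of genes, with 1103 at an unadjusted p under 0.05, while DESeq2 called 7 and limma-voom 0. In C57BL/6J males the value was 2.30 ± 0.43 log2, with 5 of 6 Low Protein libraries above the highest Medium Protein library. Low Protein was compared with Control and with Medium Protein using the same Low Protein libraries.

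Between strains, female Lepr was lower in DBA/2J than in C57BL/6J by -0.66 ± 0.41 log2 on Control (95% interval -1.47 to 0.16; adjusted p = 0.243, edgeR), which did not pass, in a comparison that called 27.8% of genes. On Medium Protein the value was -0.69 ± 0.41 log2 (adjusted p = 0.227, edgeR, 26.5% of genes called), and -0.35 without C57BL/6J female Medium Protein replicate 6. On Low Protein it was -1.22 ± 0.41 log2, or 2.32-fold lower in DBA/2J (95% interval -2.04 to -0.39; adjusted p = 0.0169, edgeR, 33.1% of genes called), with all 6 DBA/2J libraries below the C57BL/6J median. The last 2 comparisons were added after the values had been seen. Without DBA/2J female Low Protein replicate 5, the library at 38.5 CPM, the Low Protein value was -1.01 log2 and no longer passed (adjusted p = 0.0570, edgeR). The mitochondrial share was lower in DBA/2J females (16.9% to 19.0% on Control) than in C57BL/6J females (22.2% to 24.0%). On Medium Protein it was 15.0% to 19.0% against 19.2% to 22.9%, and on Low Protein 15.3% to 17.5% against 19.0% to 21.2%. Within title letters, the female strain difference on Medium Protein was -1.47 log2 CPM among N libraries and 0.34 among R libraries (3 against 3 each), while on Low Protein it was -1.69 (3 against 2) and -0.98 (3 against 4). With the mitochondrial share as a term the strain difference was larger on each diet, at -1.34 log2 on Control (adjusted p = 0.0308), -1.13 on Medium Protein (adjusted p = 0.0430) and -1.74 on Low Protein (adjusted p = 0.00151, all edgeR). The ranges of the share did not overlap between females of the strains on any diet, so share and strain cannot be told apart in these values. In males on Control, as a description, DBA/2J lay 2.43-fold below C57BL/6J in Lepr, and the ranges did not overlap.

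**Figure D2:**
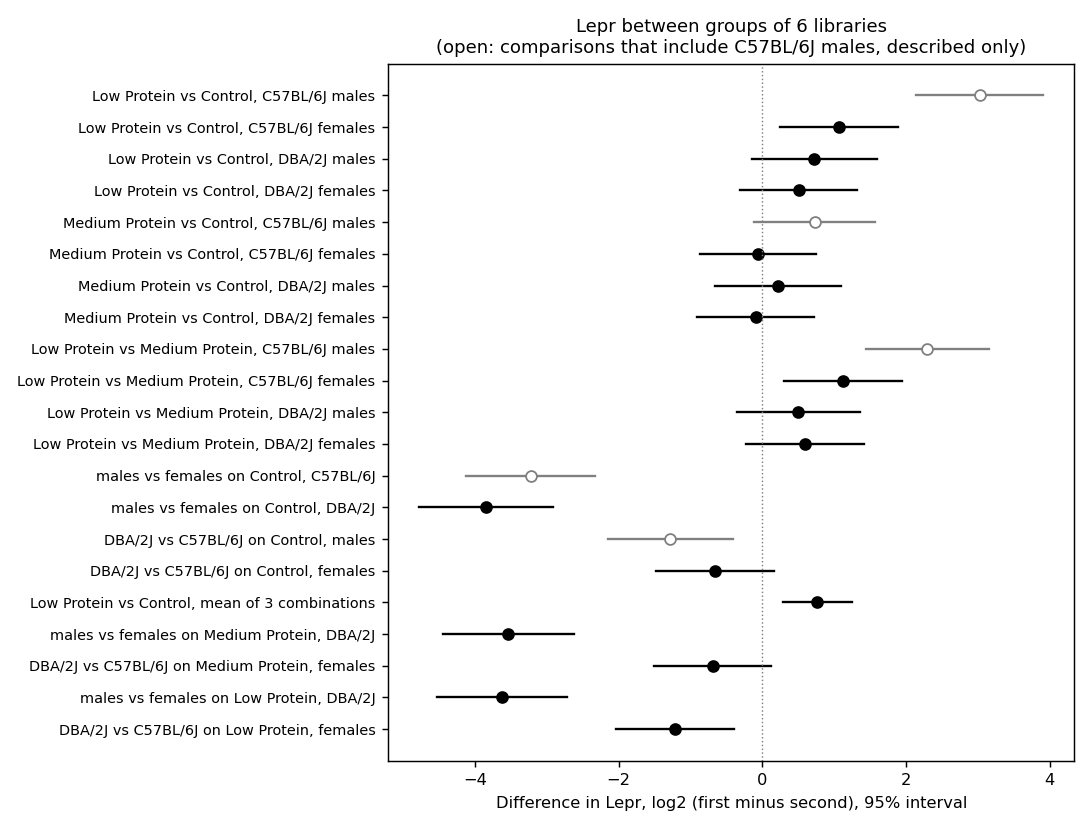
Differences in Lepr between groups (log2, first group minus second; points) with 95% intervals from the edgeR fit and open grey symbols for comparisons that include C57BL/6J males and carry no test. The sex differences in DBA/2J lie between -3.84 and -3.53 on the 3 diets, while the differences of Low Protein from Control outside C57BL/6J males lie between 0.51 and 1.06.

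The locus and the ligand were examined next. Leptin (Lep) had 22 counts over all 72 libraries, in 6 of them, and did not pass the filter on low counts. Leprot, whose product is a membrane protein that holds back the surface level of the leptin receptor, ranged from 6.59 to 13.6 CPM over all libraries, with group means from 7.83 to 10.5 CPM. In C57BL/6J males it had 7.83 ± 1.02 CPM on Control and 9.37 ± 1.35 on Low Protein, a difference of 0.26 ± 0.12 log2 that did not pass (adjusted p = 0.157, edgeR). It differed by 0.02 log2 in C57BL/6J females, -0.04 in DBA/2J males and -0.09 in DBA/2J females (adjusted p from 0.859 to 0.977, edgeR). Between sexes on Control, Leprot was lower in C57BL/6J males by -0.35 ± 0.12 log2 (adjusted p = 0.0207, edgeR) and did not pass in DBA/2J (-0.08 log2, adjusted p = 0.712). Its paralog Leprotl1 passed in none of these 6 comparisons with edgeR, where its largest difference was -0.23 log2 (DBA/2J females on Low Protein, adjusted p = 0.492). With library totals in place of TMM both genes were called lower in males of each strain, and Leprot higher in C57BL/6J males on Low Protein.

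Around the receptor, 118 genes of 7 lists passed the filter besides Lepr. The lists were chosen with earlier results of these data known, so counts of their members are a description. On Low Protein against Control, 8 were called higher and 6 lower in C57BL/6J males (11.9%, beside 9.78% of all genes), 2 higher and 1 lower in C57BL/6J females (2.54%, beside 3.25%), and 0 in DBA/2J of either sex by edgeR. In DBA/2J males 10 of the 118 had an unadjusted p under 0.05 and DESeq2 and limma-voom called 0, and in DBA/2J females 19 did, DESeq2 called 1 and limma-voom 0. The share in C57BL/6J males is near the background. With library totals in place of TMM, which moved the median of all genes from 0.01 to 0.26 log2 in C57BL/6J males, the list genes split into 38 higher and 2 lower, and all genes called into 5337 higher and 315 lower in place of 790 and 1104. Under that scaling 10 of the 14 calls kept their direction, and the lower calls of Fgfr4, Adipor1, Klb and Grb2 were not kept.

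Of 20 genes that relay the leptin signal, 1 rose and 1 fell in C57BL/6J males on Low Protein, beside 9.78% of all genes called. With library totals in place of TMM, 8 were called higher and 0 lower. With TMM the list median was -0.06 log2 beside 0.01 for all genes. Prkaa2, a catalytic subunit of the energy sensor AMPK, rose by 0.29 ± 0.08 log2 (adjusted p = 0.0142, edgeR), and the adaptor Grb2 fell by 0.30 ± 0.09 log2 (adjusted p = 0.0234, edgeR). Jak2, the kinase bound to the receptor, differed by -0.14 log2 (adjusted p = 0.360) and Stat3, its main transcription factor target, by -0.12 log2 (adjusted p = 0.633). In DBA/2J on Control, where Lepr was lower in males, 2 relay genes were higher and 5 lower in males, that is 7 of 20, beside 18.3% of all genes called. With library totals in place of TMM, 0 were higher and 12 lower, and the higher calls of Akt2 and Prkaa2 were lost. Irs2, a docking protein of the insulin receptor, was lower by -1.33 ± 0.25 log2 (adjusted p = 3.13e-05, edgeR), and Jak2 (-0.01) and Stat3 (-0.15) did not pass (adjusted p = 0.976 and 0.441).

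Of 9 genes that restrain the signal, 1 was called in C57BL/6J males on Low Protein, beside 9.78% of all genes. With library totals in place of TMM, 4 were called higher and 1 lower. With TMM, Pias3, an inhibitor of STAT3, fell by 0.62 ± 0.14 log2 (adjusted p = 0.00102, edgeR), and the other 8 did not pass. Socs3, which STAT3 induces and which blocks the receptor, differed by 0.50 ± 0.35 log2 (adjusted p = 0.416), and Ptpn1 by 0.19 ± 0.12 (adjusted p = 0.343). Socs2, an inhibitor that growth hormone induces, was lower in DBA/2J males than females by -1.93 ± 0.43 log2 (adjusted p = 0.000508, edgeR). Socs1 did not pass the filter on low counts.

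Of 19 other cytokine receptor genes, 1 was called on Low Protein in C57BL/6J males, beside 9.78% of all genes. With library totals in place of TMM, 3 were called, all higher. Il6st, the gp130 subunit shared by receptors of the interleukin-6 family, had 209 to 239.8 CPM on Control and 211 to 320 on Low Protein, overlapping ranges with a difference of 0.24 ± 0.07 log2 (adjusted p = 0.0261, edgeR). It differed by -0.18 log2 in C57BL/6J females (adjusted p = 0.169). Il6ra, the interleukin-6 receptor, differed by -0.14 ± 0.22 log2 in C57BL/6J males (adjusted p = 0.764, edgeR). Ghr, the growth hormone receptor, differed by -0.41 ± 0.14 log2 in C57BL/6J males (adjusted p = 0.0509), just short of the threshold. Prlr, the prolactin receptor, was lower in males in each strain on Control, as Lepr was. In DBA/2J it had 77.6 to 161 CPM in males and 291 to 461 in females, with no overlap (-1.93 ± 0.19 log2, adjusted p = 8.83e-13, edgeR), and in C57BL/6J the difference was -0.61 ± 0.18 log2 (adjusted p = 0.0112, edgeR). Prlr did not pass on Low Protein in any of the 4 combinations of strain and sex with edgeR (differences from -0.31 to 0.01 log2, adjusted p from 0.382 to 0.998).

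**Figure D3:**
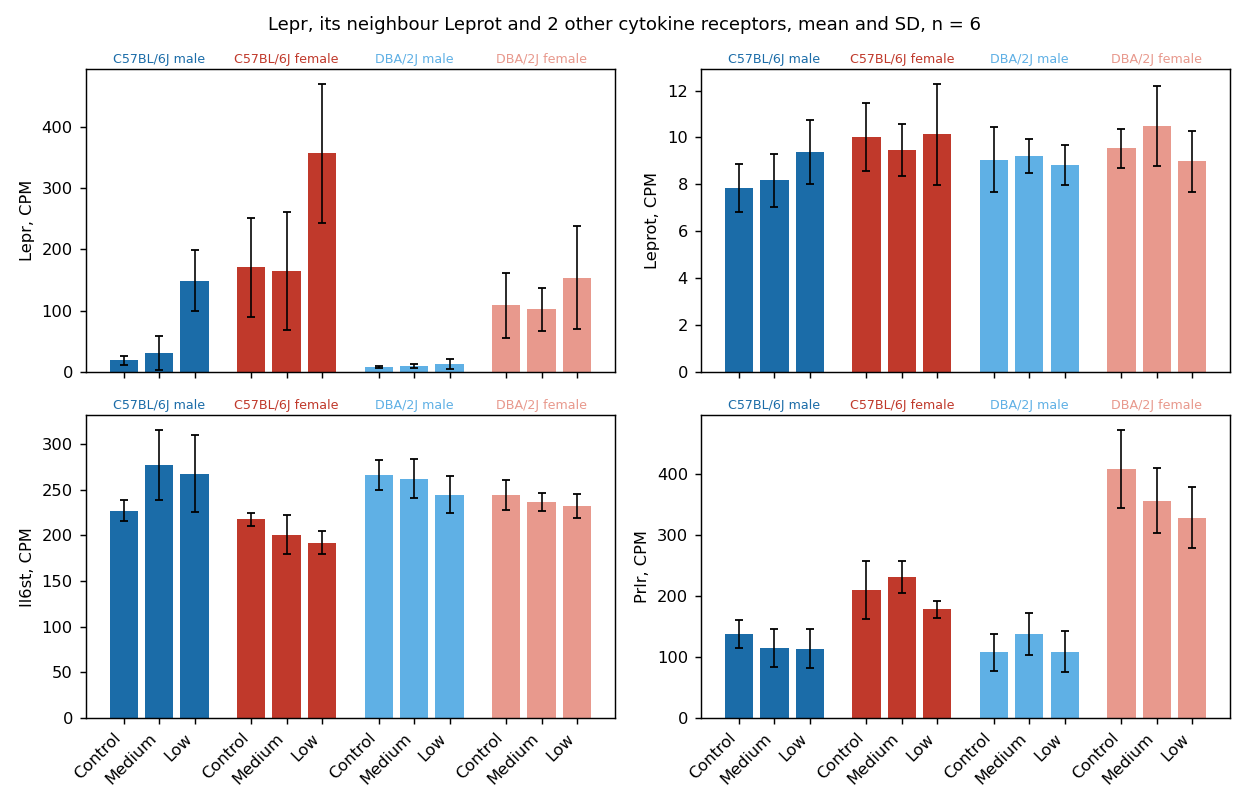
Mean CPM (bars) with SD (lines, n = 6) by diet within strain and sex for Lepr, its neighbour Leprot and the receptors Il6st and Prlr, each on its own axis from 0. Leprot means stay between 7.83 and 10.5 CPM while Lepr means run from 7.55 to 357 CPM, and Prlr shows the female excess but not the Low Protein level of Lepr in C57BL/6J males.

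Among 24 acute phase genes that STAT3 is known to switch on, Saa3 rose in C57BL/6J males on Low Protein (1.64 ± 0.45 log2, adjusted p = 0.0102, edgeR) and Orm2 in C57BL/6J females (3.83 ± 0.90 log2, adjusted p = 0.00759, edgeR). In each of these comparisons the other 23 did not pass, and the list median was -0.17 log2 in males and 0.19 in females. Of all genes, 9.78% were called in these males and 3.25% in these females. With library totals in place of TMM, 4 of the 24 were called higher in males and 1 in females.

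Of 33 genes that respond to fasting or to a shortage of amino acids, 5 rose and 1 fell in C57BL/6J males on Low Protein, beside 9.78% of all genes called, with a list median of 0.41 log2 beside 0.01 for all genes. With library totals 16 were called higher and 1 lower. As this list was chosen with earlier results of these data known, its counts and p-values here are no independent support. Aldh1l2, a mitochondrial folate enzyme, rose by 3.16 ± 0.43 log2 (adjusted p = 3.33e-07), Psat1, an enzyme of serine synthesis, by 4.09 ± 0.58 (adjusted p = 8.65e-07) and Pdk4, which holds back pyruvate oxidation, by 3.67 ± 0.52 (adjusted p = 8.87e-07, all edgeR). Asns, asparagine synthetase (3.76 ± 0.60, adjusted p = 9.11e-06), and the hormone Fgf21 (2.00 ± 0.41, adjusted p = 0.000557, both edgeR) rose as well. Sds, a serine-degrading enzyme, fell by 1.27 ± 0.32 log2 (adjusted p = 0.00561, edgeR). In C57BL/6J females Aldh1l2 was the 1 member that passed (1.83 ± 0.42 log2, adjusted p = 0.00609, edgeR), beside 3.25% of all genes, and the list median was -0.10 log2.

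Between the sexes on Control, 5 of the 33 were higher and 4 lower in DBA/2J males (18.3% of all genes called), and 2 were higher and 10 lower in C57BL/6J males (20.8%). With library totals these counts were 4 and 7 in DBA/2J and 0 and 16 in C57BL/6J. Vldlr, a receptor for triglyceride-rich lipoproteins, was lower in males as Lepr was, by -3.80 ± 0.43 log2 in DBA/2J (adjusted p = 9.88e-11) and -1.97 ± 0.37 in C57BL/6J (adjusted p = 4.97e-05, both edgeR). Pdk4 was lower in males by -1.49 ± 0.49 log2 in DBA/2J (adjusted p = 0.0236) and -1.40 ± 0.50 in C57BL/6J (adjusted p = 0.0340, both edgeR). Igfbp1, an insulin-repressed binding protein of IGF1, was lower by -1.67 ± 0.61 log2 (adjusted p = 0.0449) and -2.02 ± 0.61 (adjusted p = 0.0118, both edgeR) in that order. Fgf21 went opposite ways, higher in DBA/2J males (1.33 ± 0.39 log2, adjusted p = 0.0101) and lower in C57BL/6J males (-1.32 ± 0.41, adjusted p = 0.0160, both edgeR). Asns was higher in DBA/2J males (2.83 ± 0.94 log2, adjusted p = 0.0262, edgeR), at means of 0.62 CPM in males and 0.083 in females, both near the floor. It did not pass in C57BL/6J (-0.19, adjusted p = 0.867, edgeR), where the highest female library had 7.43 CPM beside a female median of 0.26.

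Of 13 genes for adipokine receptors and insulin signalling, Fgfr4 (-0.52 ± 0.10 log2, adjusted p = 0.000356), the adiponectin receptor Adipor1 (-0.18 ± 0.05, adjusted p = 0.00994) and the FGF21 co-receptor Klb (-0.32 ± 0.10, adjusted p = 0.0268, all edgeR) fell in C57BL/6J males on Low Protein. These were the 3 members called there, beside 9.78% of all genes, and with library totals 2 members were called higher and 0 lower. The estrogen receptor Esr1 was the 1 member called in C57BL/6J females, beside 3.25% of all genes, and fell by 0.62 ± 0.15 log2 (adjusted p = 0.0115, edgeR). Between the sexes on Control, 2 were higher and 5 lower in DBA/2J males (18.3% of all genes called). In C57BL/6J males 6 were higher and 2 lower (20.8%). With library totals these counts were 2 and 8 in DBA/2J and 1 and 5 in C57BL/6J. There the balance in C57BL/6J turned, and Insr went from called higher to called lower. Esr1 was lower in males than in females on Control in DBA/2J (-0.60 ± 0.15 log2, adjusted p = 0.00302) and in C57BL/6J (-0.69 ± 0.15, adjusted p = 0.000577, both edgeR).

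Markers of other liver cells were read beside these results. On Low Protein against Control in C57BL/6J males, 9.78% of all genes were called. There 0 of 16 endothelial, 0 of 15 Kupffer cell and 0 of 12 lymphocyte markers were called by edgeR. Of 20 stellate cell markers, 1 (Ngfr, -0.77 log2, adjusted p = 0.00237, edgeR) was lower. The summed stellate markers were 427 to 639 CPM on Control and 460 to 600 on Low Protein, and the Kupffer cell markers 180 to 391 and 157 to 388. Of the 3 adipocyte markers tested, Cidec, a lipid droplet protein that fatty hepatocytes also make, was higher (1.94 log2, adjusted p = 0.00233, edgeR), while the defining markers Adipoq, Plin1, Retn and Lep did not pass the filter (145, 144, 34 and 22 counts over all libraries), and the summed adipocyte markers were 7.17 to 13.2 CPM on Control and 16.4 to 38.7 on Low Protein. In C57BL/6J females on Low Protein against Control, 3.25% of all genes were called. There edgeR called 0 of 20 stellate, 0 of 16 endothelial, 0 of 15 Kupffer cell, 0 of 12 lymphocyte and 0 of 3 adipocyte markers. Their summed Kupffer cell markers were 257 to 719 CPM on Control and 291 to 1318 on Low Protein. The lymphocyte markers were 5.58 to 8.14 and 4.22 to 17.7, and the adipocyte markers 12.0 to 48.2 and 21.2 to 71.3. Between the sexes of DBA/2J on Control, where 18.3% of all genes were called, 1 of 20 stellate markers was higher in males and 3 lower, and none of 15 Kupffer cell markers was called by edgeR. The endothelial markers Tie1 and Clec4g were higher (2 of 16), as were the adipocyte markers Cidec and Fabp4 (2 of 3). Of 8 cholangiocyte markers Sox9 was higher and Cftr lower, and of 12 lymphocyte markers Cd4 was higher and Cd3e lower. The summed stellate markers overlapped (632 to 714 CPM in males, 586 to 788 in females), as did the summed adipocyte markers (5.76 to 17.0 and 3.31 to 6.89). In C57BL/6J on Control, where 20.8% of all genes were called, 7 of 20 stellate and 5 of 15 Kupffer cell markers were lower in males, and 2 of 16 endothelial markers were higher. With library totals, 16 of 20 stellate, 15 of 15 Kupffer cell and 11 of 16 endothelial markers were called lower in C57BL/6J males. In DBA/2J that scaling called 7 stellate, 1 Kupffer cell and 2 endothelial markers lower and 1 stellate marker higher. The part of these cells in the Lepr differences was not tested.

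The variation of Lepr between libraries of the same group was set against 6 genes, Leprot, Fgf21, Asns, Pdk4, Igfbp1 and Socs3, each as its deviation from its group mean in log2 CPM over 72 libraries. Igfbp1 went with Lepr most closely (Pearson r = 0.50, adjusted p = 0.00132; Spearman rho = 0.53, adjusted p = 0.00024; permutation within groups, adjusted over the 6 genes). Fgf21 (r = 0.39, adjusted permutation p = 0.00918; rho = 0.32, adjusted p = 0.0313) and Pdk4 (r = 0.40, adjusted permutation p = 0.0147; rho = 0.31, adjusted p = 0.0314) also passed. The 6 genes come from lists chosen with earlier results of these data known, and C57BL/6J males are among the 72 libraries. Without the 2 libraries farthest from the median of the other gene, r was 0.50 for Igfbp1, 0.37 for Fgf21 and 0.36 for Pdk4. Leprot (r = 0.21, adjusted permutation p = 0.144; rho = 0.27, adjusted p = 0.0512), Asns (r = 0.016, adjusted permutation p = 0.919; rho = -0.027, adjusted p = 0.839) and Socs3 (r = 0.025, adjusted permutation p = 0.919; rho = 0.11, adjusted p = 0.493) did not pass, and without the 2 farthest libraries their r was 0.18, 0.0041 and 0.16. Asns had group means of 0.062 to 0.62 CPM in DBA/2J. Its deviations there are mostly count noise near the floor, so its r says little about a relation in those libraries.

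These relations differed in size between the title letters. For Igfbp1, r was 0.62 among 35 N libraries and 0.30 among 37 R libraries, for Pdk4 0.59 and 0.24, and for Fgf21 0.52 and 0.40. Of the genes that did not pass, Leprot had 0.41 and 0.12, while Socs3 (0.41 and -0.078) and Asns (0.20 and -0.23) changed sign. After the part that follows the mitochondrial share was removed, r over the 72 libraries was 0.48 for Igfbp1, 0.37 for Pdk4 and 0.33 for Fgf21. The paired values share a library and its scaling.

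**Figure D4:**
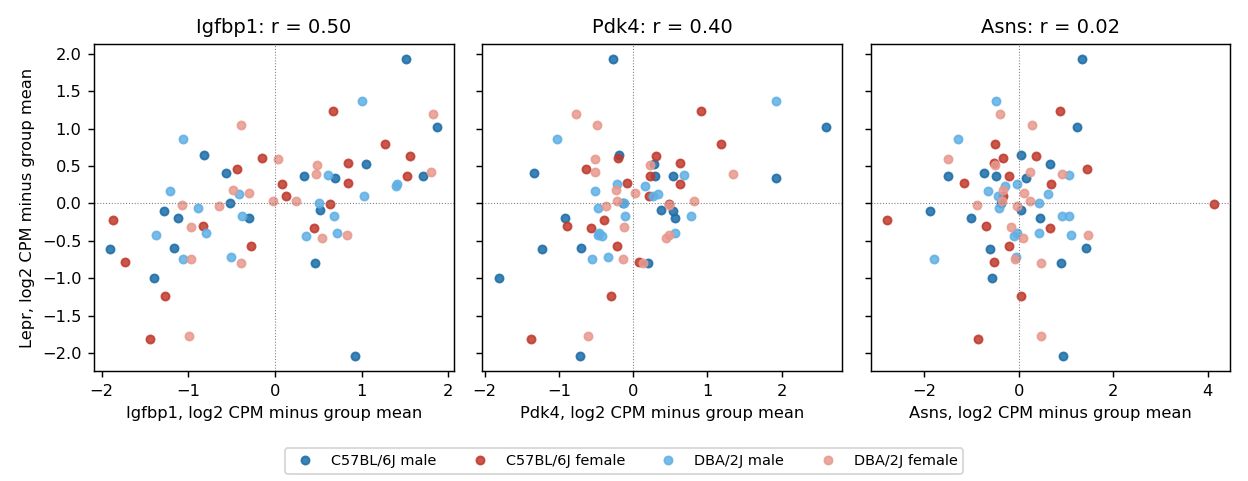
Deviation of Lepr from its group mean (log2 CPM, vertical axis) against that of Igfbp1, Pdk4 and Asns (horizontal axes) in 72 libraries, coloured by strain and sex. The points rise together for Igfbp1 (r = 0.50) and Pdk4 (r = 0.40) and show no slope for Asns (r = 0.016), where 1 library lies far to the right. Asns lay near the floor in DBA/2J, with group means of 0.062 to 0.62 CPM.

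Among 11588 named genes above a floor on mean level (log2 CPM of 0 or more), those whose 12 group means followed Lepr most closely are given as a description with no test. They were Peg3 (r = 0.97), Acadl (0.97), Tns4 (0.96), Rad51b (0.96), Gadd45b (0.96) and Rab27a (0.95), over 12 points that share the libraries with Lepr. Peg3, an imprinted zinc finger gene, had group means of 12.6 CPM on Control and 33.4 on Low Protein in C57BL/6J males and 29.95 and 52.0 in C57BL/6J females. In DBA/2J its group means were 10.2 and 13.8 CPM in males and 25.8 and 26.8 in females on the same diets. Rad51b, a DNA repair gene, had group means of 2.43 CPM on Control and 11.6 on Low Protein in C57BL/6J males, and of 1.89 in males and 13.2 in females of DBA/2J on Control. These levels were part of what ranked the genes. Acadl, a fatty acid oxidation enzyme, followed the order of the groups over a small range, from 152 to 212 CPM.

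Over the deviations of the 72 libraries from their group means, the closest genes were Brap (r = 0.68), Abhd2 (0.67), Ryk (0.63), Itih2 (0.62), Elovl2 (0.60) and Kif21a (0.60). None of these 6 was called on Low Protein against Control in any strain and sex with edgeR (largest difference -0.37 ± 0.18 log2, Abhd2 in C57BL/6J males, adjusted p = 0.2001). These tests concern group means, which that ranking did not use. Abhd2 and Itih2 were lower in DBA/2J males than females on Control, by -1.08 ± 0.18 log2 (adjusted p = 5.16e-06) and -0.56 ± 0.09 (adjusted p = 7.11e-07, both edgeR).

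The authors' deposited table of comparisons was set beside these values. For Low Protein against Control it gives Lepr a log2 difference of 1.19 in C57BL/6J females (adjusted p = 0.0843), 0.59 in DBA/2J males (adjusted p = 0.895) and 0.40 in DBA/2J females (adjusted p = 0.749). For C57BL/6J males the authors' deposited table gives 3.05, and for Leprot in that comparison 0.26 (adjusted p = 0.176).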

How the data were processed

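Livers of 72 mice were profiled by stranded poly(A) RNA-seq, with libraries spread over 2 lanes and merged, per the labels' protocols. R 3.4.3, limma, edgeR and RSEM were used, per the submitters' processing notes. Genome build, annotation and aligner were not given in the sources used here. Expected counts per gene from RSEM, which add all isoforms of a gene, were deposited by the authors. Their deposited comparison table holds log2 fold changes, p-values and F scores, and its column headers name 2 diets with no sign convention: positive values were read as higher on the second diet, the sign that the counts give.

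Here the expected counts were rounded and scaled by TMM. Genes with low counts were removed with filterByExpr, which left 19362 of 51912. One edgeR quasi-likelihood model (edgeR 4.0.16, R 4.3.3) was fitted to the 12 group means over all 72 libraries, and a call is an adjusted p under 0.05 (Benjamini-Hochberg over all genes tested). SEs were taken from the log2 difference and its F. The fits were tested on simulated data. Alternatives were RLE scaling, library totals, no filter, a filter of a mean of 1 CPM, unrounded counts, plate row or title letter as a term, limma-voom (limma 3.58.1), DESeq2 1.42.0, only the groups compared, an exact permutation test on log2(CPM + 0.5), and leaving out each library. Chosen after seeing the data were the mitochondrial share as a term, leaving out the 4 libraries over 5% ribosomal-like counts, relations within title letters and to library measures, and the comparisons so named. Within-group relations used log2 CPM with a prior count of 2 and 100000 permutations within groups.

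Lepr and all gene lists were chosen with earlier results of these data known. Named genes were a set list (Lepr, Leprot, Leprotl1, Lep, Jak2, Stat3, Socs3, Ptpn1, Il6st, Il6ra, Ghr, Fgf21, Asns, Pdk4, Igfbp1). To these came, per list, up to 4 called members of smallest p and up to 2 uncalled members of largest mean on Low Protein, and the 6 genes most like Lepr by each measure. Genes named for a sex difference, Sds and the marker genes were chosen after their values were seen.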

Additional observations from a re-analysis of the deposited data

Results flagged for a closer look

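In DBA/2J males, 1 library stood apart from the other 5 in Lepr CPM on each of the lower-protein diets. On Medium Protein the highest library had 15.3 CPM, and its gap to the next was 0.71 of the range of the group. On Low Protein the highest library had 28.3 CPM, with a gap of 0.71 of the range. Both exceed Dixon's critical value for 6 libraries on the CPM scale, which was the only scale checked. On log2 CPM the highest, next and lowest Medium Protein libraries were at 3.94, 3.17 and 2.68. Those on Low Protein were at 4.83, 3.71 and 2.75. The gaps take up less of the range on that scale, so the flag holds for CPM only. Lepr and Leprot were each checked in 12 groups, and for normally distributed values chance alone passes this limit in about 1 in 20 groups. Whether CPM values follow that distribution was not tested.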

How the results depend on the processing

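The female excess of Lepr in DBA/2J kept its direction and its call on all 3 diets under all 13 alternatives and without any 1 library (on Control -4.12 to -3.49 log2). In C57BL/6J females, Low Protein did not pass under any alternative that adjusts over all genes. The exact permutation test of the single gene, with no such adjustment, gave 1.20 against Control (p = 0.0195) and 1.25 against Medium Protein (p = 0.0130). The unadjusted edgeR p-values were 0.0118 and 0.00815 in that order. With plate row as a term, Medium Protein against Control turned to 0.046 in C57BL/6J females and 0.038 in DBA/2J females. With the mitochondrial share as a term, the female strain difference passed at -1.34 on Control and -1.13 on Medium Protein, and the mean Low Protein difference over 3 combinations was 0.53 (adjusted p = 0.260). That mean also missed the threshold with no filter (0.77, adjusted p = 0.0764), with title letter as a term (0.75, adjusted p = 0.0509), without the 4 ribosomal-like libraries (0.77, adjusted p = 0.0554) and with limma-voom (0.73). In females the mitochondrial share and strain cannot be told apart, as the ranges of the share did not overlap between strains on any diet. The causes were not tested. Leaving out 1 library at a time gave 0.62 to 0.86 for that mean, -1.52 to -1.01 for the female strain difference on Low Protein, -0.21 to 0.52 for the DBA/2J sex difference in the Low Protein effect, and, for Medium Protein against Control, -0.40 to 0.11 in C57BL/6J females, -0.0053 to 0.30 in DBA/2J males and -0.22 to 0.20 in DBA/2J females.

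Counts of called genes moved more than Lepr did. Low Protein against Control called 1894 genes in C57BL/6J males (1258 with no filter, 5652 with library totals), 629 in C57BL/6J females (87 with only the groups compared), 18 in DBA/2J males (0 with only the groups compared, 43 with DESeq2) and 158 in DBA/2J females (69 with library totals, 274 with DESeq2). The mean of 3 combinations called 986 (582 with no filter). Between sexes on Control, library totals called 8941 in place of 4021 in C57BL/6J, with 5.32% in place of 55.8% higher in males, and 7288 in place of 3539 in DBA/2J (7.59% in place of 57.1%), where the median of all genes was -0.35 and -0.29 log2. They called 6476 in place of 2552 between DBA/2J sexes on Medium Protein. Low Protein against Medium Protein called 376 in C57BL/6J females (101 with only the groups compared) and 8 in DBA/2J females (57 with DESeq2), and the strain difference in the female Low Protein effect 18 (6 and 123). Medium Protein against Control called 1 gene in DBA/2J males (0 to 5) and 1 in DBA/2J females (0 to 9). No paired analysis was possible because the replicate numbers follow accession order and only name the libraries. Depth did not limit the presence of Lepr, which had at least 138 counts, but the spread within groups left intervals of about the size of the female diet difference.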
